A study of Mus musculus with 4 samples.

Results

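The genes described here are the proteasome and immunoproteasome genes of mouse lung group 2 innate lymphoid cells (ILC2s), cytokine-producing lymphocytes of the airways. They were chosen by name alone: protein-coding genes of the deposited table whose symbol starts with Psma, Psmb, Psmc, Psmd, Psme, Psmf or Psmg followed by a digit. That gave 50 of 22554 genes. The rule itself uses no measured value, but it was set with earlier results of these data known. Of the 50 genes, 1, Psmc3ip, carries the name of a proteasome subunit but is known as a cofactor of meiotic recombination and not as a subunit.

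The ILC2s were sorted from the lungs of BALB/c mice of 6 weeks of age by a gate on lineage-negative CD45+ CD127+ ST2+ cells, with CD3e among the lineage markers, and cultured overnight according to the labels, while the study's methods give another culture time. Both groups received IL-2 and IL-7, which keep the cells alive, and IL-33, the alarmin that activates them. The vehicle group received solvent and the 5D group received compound 5D, a small molecule that blocks the Orai calcium channels, with 2 RNA-seq libraries per group. The question put to the proteasome genes was whether their RNA differed between ILC2s with and without this block. The labels do not say that the libraries of a group came from separate mice or cultures. The p-values of single genes thus measure the spread between these libraries, estimated partly across genes, and this spread may be technical.

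The proteasome is the barrel-shaped protease that breaks down proteins marked with ubiquitin. Its core, the 20S particle, is built of alpha rings that gate the entrance and beta rings that hold the active sites, and a 19S cap with ATPases unfolds the substrate and feeds it in. Lymphocytes also make immunoproteasomes, in which the catalytic beta subunits are exchanged for interferon-inducible ones that favour peptides for MHC class I, and the Psme genes encode other caps that open the barrel.

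The 4 libraries held between 20096555 and 28697265 estimated counts, and proteasome genes took 1.09% to 1.10% of the counts in each library. The labelled cell type was checked against marker genes. All 10 ILC2 markers were detected, and their normalized CPM (counts scaled to library size with upper quartile factors) summed to 7370 and 7443 in the vehicle libraries and to between 6887 and 7237 in the 5D libraries. The 7 lists of other lung and blood cells each summed to at most 49.94 CPM in a library, and Cd4, S100a9, Mcpt4 and Scgb1a1 were at 0 in all 4 libraries. The highest of these other markers by mean were Epcam, at 25.48 to 27.7 CPM, and Cd3g, at 21.61 to 24.55 CPM. Pecam1, at 15.7 to 23.72 CPM, and Cd79b, at 13.41 to 19.14 CPM, came next. The lowest ILC2 marker, Thy1, was below all of these in each library, at 8.569 to 13.04 CPM. The part of these other markers in the results was not tested. In bulk RNA a lower level cannot be told apart from fewer cells of a kind.

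Across the complex, RNA levels with 5D lay close to those with vehicle. Of the 50 genes, 49 passed the filter on low counts and were tested, and 25 had a positive and 24 a negative log2 fold change (5D against vehicle throughout). None passed at an adjusted p under 0.05 in edgeR's quasi-likelihood test, in DESeq2 or in limma-voom, where the background was 0.0963% of 17650 genes in edgeR, and the smallest adjusted p among the 49 was 0.634. At an unadjusted p under 0.05, 1 of the 49 genes was lower (2.04%, background 3.84%) and 0 were higher (background 3.5%). The 5D libraries were both lower than either vehicle library for 12 genes (24.5%, background 18.8%) and both higher for 5 genes (10.2%, background 18.7%).

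The remaining 2 genes at the bottom of the scale belong to special proteasomes. Psmb11, the catalytic subunit of the thymoproteasome of thymic epithelium, had 1 and 0 counts with vehicle and 0 and 2 counts with 5D and was not tested. Psma8, the alpha subunit of the testis proteasome, had 3 and 3 counts with vehicle and 2 and 5 with 5D, which is too few for a fold change. The other 48 genes had between 249 and 17704 counts in every library.

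For these 48 genes the 95% intervals were narrow, but they rest on the spread between 2 libraries per group. edgeR estimates this spread partly from all tested genes together, so a gene's interval does not follow its own libraries alone. That spread may be technical, so the intervals may not limit a difference between mice or cultures. Log2 fold changes ran from -0.14 (Psme2b) to 0.15 (Psmf1), with a median of 0.0016, and the median absolute log2 fold change was 0.0321 beside 0.147 over all genes tested. The genes tested reach down to 0 CPM in a library, against 10.57 CPM for these 48. The medians 0.0321 and 0.147 are thus not matched for level and do not show steadier genes. The standard errors ran from 0.0429 to 0.157. The 95% interval lay within a log2 fold change of 0.25 in either direction (1.19-fold) for 42 genes and within 0.5 (1.41-fold) for all 48. The 6 genes with wider intervals than 0.25 were Psmc3ip, Psmd10, Psme2b, Psmf1, Psmg3 and Psmg4, all at or below 71.73 CPM in every library.

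The spread between replicates was of the same order as the difference between groups. The median absolute log2 difference over the 48 genes was 0.0586 between the vehicle libraries, 0.0455 between the 5D libraries and 0.0319 between the group means. The group difference was larger than both replicate differences for 10 of the 48 genes (20.8%, background 25.5% of the 16486 tested genes above 0 in all libraries), namely Psmb3, Psmd1, Psmd4, Psmd8, Psmd10, Psmd11, Psmd12, Psmd14, Psme2 and Psme2b. The median over the 48 genes was not stable in sign, since it was -0.0306 without vehicle replicate 1 and -0.0183 without 5D replicate 2.

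**Figure D1:**
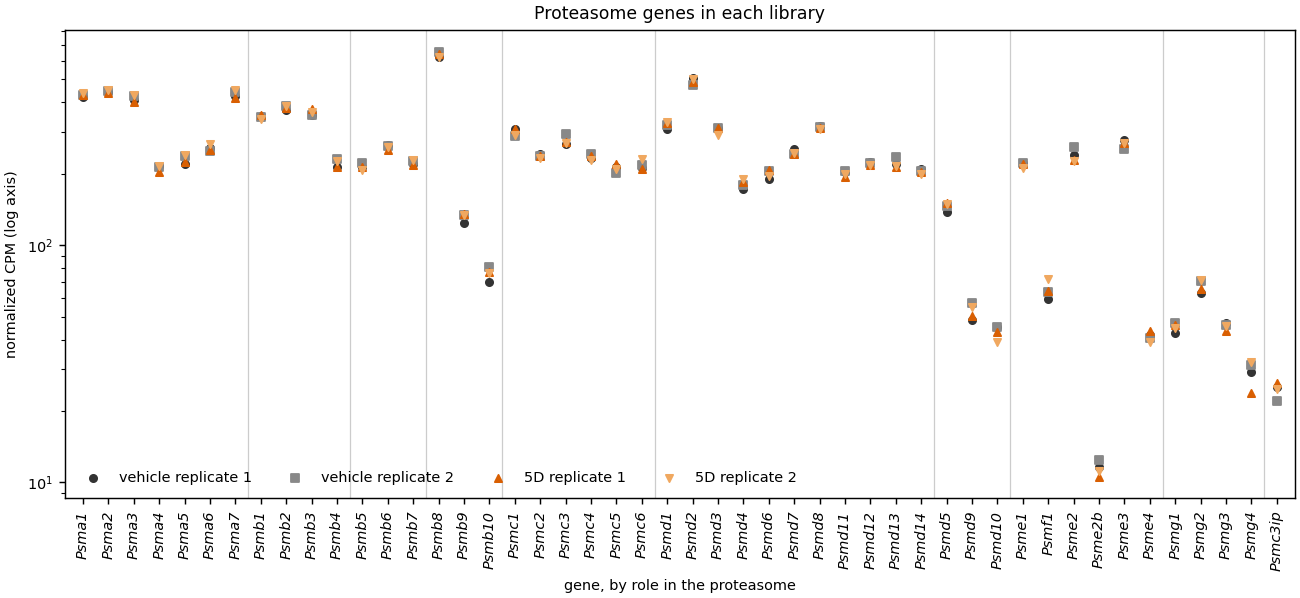
Normalized CPM (log axis) of the 48 proteasome genes in each of the 4 libraries, ordered by role, with vertical lines between roles and 1 marker per library. The markers of the 4 libraries lie close together for most genes, from Psme2b at 10.57 to 12.44 CPM up to Psmb8 at 619.2 to 655.3 CPM.

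Levels of different genes were compared per length, as normalized CPM per kilobase of the principal transcript, averaged over the 4 libraries. On that scale the 48 genes ran from 6.358 (Psme4) to 474.1 (Psma7). The alpha ring genes had a median level of 186.1 and the structural beta genes one of 320.6, with Psma7 and Psmb3 (473.3) at the top. The median level was 162.0 for the 19S ATPases and 136.5 for the 19S non-ATPases. The dedicated assembly factors were lower, at a median of 52.02 for the 20S chaperones Psmg1 to Psmg4 and of 30.17 for the 19S base chaperones Psmd5, Psmd9 and Psmd10. These levels depend on the transcript that is taken for the length, and Psma2 and Psma3 in particular have long principal transcripts in this annotation (2911 and 2846 nt).

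The alpha ring (Psma1 to Psma7), which forms the gate of the barrel, had a median absolute log2 fold change of 0.0238, against 0.031 for the 19S ATPases and 0.0413 for the 19S non-ATPases. All 3 medians lie below the smallest SE of a gene, 0.0429. They were not tested against one another and do not show a steadier ring. Of the 8 tested alpha genes, Psma8 included, 5 had a positive and 3 a negative log2 fold change. The median over Psma1 to Psma7 was 0.0022 and ran from -0.0264 to 0.0357 when 1 library was left out. The libraries overlapped for all of them. Psma4 was farthest from 0 among the 7 well-expressed genes, at 216.4 and 214.1 CPM with vehicle and 203.4 and 216.3 CPM with 5D.

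Over the beta subunits without an active site, Psmb1 to Psmb4, the median log2 fold change was 0.0084. Psmb3 was the only one of the 4 whose libraries did not overlap, at 355.3 and 354.4 CPM with vehicle and 374.5 and 365.9 CPM with 5D. Both 5D libraries were above both vehicle libraries, by a log2 fold change of 0.061 ± 0.0447 (SE, n = 2 per group, edgeR adjusted p = 0.834).

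The constitutive catalytic subunits Psmb5, Psmb6 and Psmb7 carry the chymotrypsin-like, caspase-like and trypsin-like activity. Psmb5 had 213.2 and 221.8 CPM with vehicle and 212.6 and 208.0 CPM with 5D. Psmb6 had 263.6 and 262.3 CPM with vehicle and 252.4 and 260.5 CPM with 5D. Both genes were lower in both 5D libraries than in either vehicle library, but by less than 2 SE, with log2 fold changes of -0.05 ± 0.0519 and -0.04 ± 0.0488 (SE, edgeR adjusted p = 0.9 and 0.929). Psmb7 had 219.7 and 227.2 CPM with vehicle and 218.3 and 229.2 CPM with 5D, so that its groups overlapped, and its log2 fold change was 0.0023 ± 0.0527 (adjusted p = 0.997).

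The immunoproteasome subunits that take their places were all expressed in these cells. Psmb8, which replaces Psmb5, was the highest of all proteasome genes by CPM, at 621.9 and 655.3 with vehicle and 639.0 and 619.2 with 5D. Psmb9, which replaces Psmb6, had 124.3 and 134.6 CPM with vehicle and 135.6 and 134.4 CPM with 5D. Psmb10, which replaces Psmb7, had 69.79 and 80.65 CPM with vehicle and 76.82 and 76.0 CPM with 5D. The groups overlapped for all 3 genes, and vehicle replicate 1 was the lowest library for Psmb9 and Psmb10.

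The log2 fold changes of these subunits were -0.02 ± 0.0432 for Psmb8, 0.0615 ± 0.0631 for Psmb9 and 0.0239 ± 0.0834 for Psmb10 (SE, edgeR adjusted p = 0.957, 0.896 and 0.982). The 95% intervals ran from -0.12 to 0.0733 for Psmb8, from -0.08 to 0.20 for Psmb9 and from -0.16 to 0.21 for Psmb10. Changes of 1.19-fold in either direction lay outside the interval of each. The sign for Psmb8 and for Psmb10 depended on 1 library, as Psmb8 stood at 0.0142 without vehicle replicate 2 and Psmb10 at -0.0814 without vehicle replicate 1. Psmb9 shares 212 exonic bases with Tap1, its neighbour on the other strand of chromosome 17, and since strand is not given in the sources used here the reads of that stretch cannot be assigned to one of them.

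To compare the exchange itself, each immunoproteasome gene was divided by its constitutive counterpart within each library, per length. Psmb8/Psmb5 was 1.611 and 1.631 with vehicle and 1.66 and 1.644 with 5D, Psmb9/Psmb6 was 0.2782 and 0.3028 against 0.317 and 0.3045, and Psmb10/Psmb7 was 0.2811 and 0.3141 against 0.3114 and 0.2934. The first and second ratio were higher in both 5D libraries than in either vehicle library, by log2 differences of 0.0273 and 0.0982, while the third overlapped. The sum of the 3 immunoproteasome genes over the sum of the 3 constitutive genes was 0.6965 and 0.7307 with vehicle and 0.7442 and 0.7118 with 5D, which overlapped. The log2 difference of the sums was 0.0289, and its sign turned without vehicle replicate 1 (-0.0057) or without 5D replicate 1 (-0.0032). The exact permutation test over the libraries, two-sided, gave p = 0.333, 0.333 and 1.0 for the 3 pairs and 0.667 for the sum, and 0.333 is the smallest p that 2 against 2 libraries allow. None of these 4 comparisons can therefore pass a threshold of 0.05, before or after adjustment.

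Whether Psmb8 stood above Psmb5 depended on the length. With all exons of the full annotation as the length, a choice made after seeing the data, the ratio was 0.7756 to 0.7994 in the 4 libraries, and without any length it was 2.917 to 3.006. Psmb9 and Psmb10 stayed below their counterparts on all of these scales. The ratios have a further limit in shared stretches. Among the denominators, Psmb5 shares 796 nt with Gm3375 at 98.9% identity, and Psmb7 shares 255 nt with Nek6, whose exons overlap its own. Among the numerators, exons of Psmb8 overlap those of Gm20496, and exons of Psmb9 overlap those of Tap1. How reads of these stretches were assigned is not given in the sources used here, so the ratios are uncertain to that extent.

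**Figure D2:**
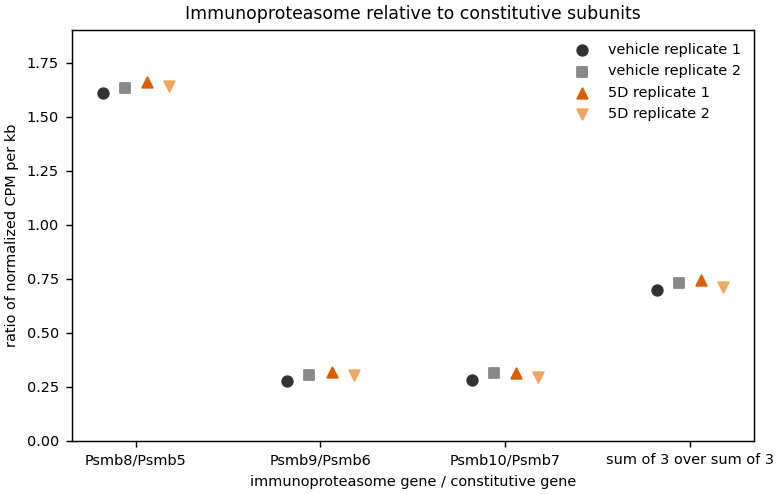
Ratio of normalized CPM per kilobase of each immunoproteasome gene to its constitutive counterpart, and of the sums over 3 genes, with 1 marker per library. Psmb8/Psmb5 lies between 1.611 and 1.66 and the other pairs between 0.2782 and 0.317, with little distance between vehicle and 5D.

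The 19S ATPases Psmc1 to Psmc6, the ring that unfolds substrates, were split evenly around 0, with 3 genes on either side and a median of -0.0041. The libraries of both groups overlapped for all 6, and the values ranged from -0.05 (Psmc3) to 0.0471 (Psmc5).

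The 11 non-ATPase subunits of the 19S cap include the ubiquitin receptor Psmd4 and the deubiquitinase Psmd14. Their median log2 fold change was -0.0313, with 7 genes negative and 4 positive, and none had an unadjusted p under 0.05. With 5D both libraries were lower than either vehicle library for 5 of them (45.5%, background 18.8%), namely Psmd8, Psmd11, Psmd12, Psmd13 and Psmd14, and higher for Psmd1 and Psmd4 (18.2%, background 18.7%). Psmd4 had 172.7 and 180.1 CPM with vehicle and 184.3 and 190.2 CPM with 5D, a log2 fold change of 0.0866 ± 0.055 (SE, edgeR adjusted p = 0.8). Psmd13 had 220.7 and 234.5 CPM with vehicle and 212.9 and 216.5 CPM with 5D, a log2 fold change of -0.08 ± 0.0531 (SE, adjusted p = 0.799). The scaffold subunit Psmd2 had 505.1 and 475.1 against 489.4 and 499.9 CPM, and its groups overlapped.

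The base chaperones, which help to assemble the ATPase ring, had values in both directions. Psmd10, also known as gankyrin, had 45.38 and 45.12 CPM with vehicle and 42.96 and 39.14 CPM with 5D. Psmd5 had 137.5 and 146.7 CPM with vehicle and 151.2 and 148.5 CPM with 5D. Both 5D libraries were thus below vehicle for Psmd10 and above it for Psmd5, with log2 fold changes of -0.14 ± 0.0946 and 0.0766 ± 0.06 (SE, edgeR adjusted p = 0.817 and 0.849), and neither passed the test.

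**Figure D3:**
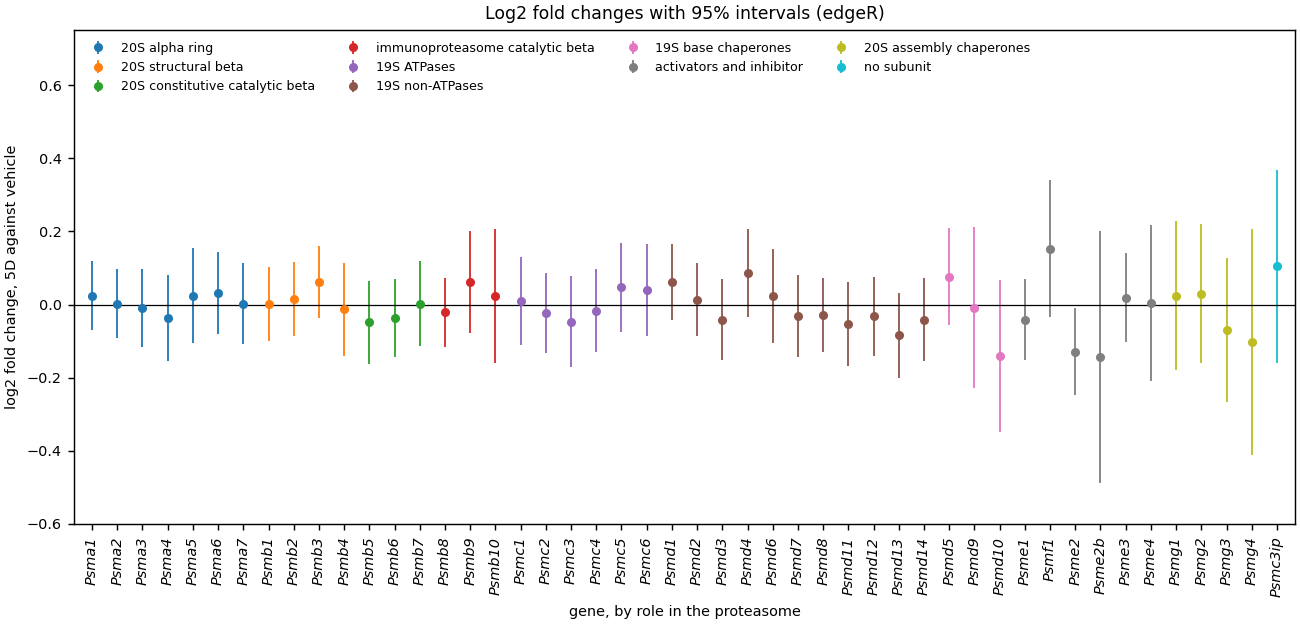
Log2 fold change of 5D against vehicle for the 48 proteasome genes with 95% intervals from edgeR, ordered and coloured by role. The points lie between -0.14 and 0.15, and the interval leaves out 0 only for Psme2.

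Psme2, a subunit of the PA28 cap that opens the 20S barrel and is known for its part in MHC class I peptide supply, was the only proteasome gene with an unadjusted p under 0.05. It had 240.1 and 258.6 CPM with vehicle and 228.9 and 227.1 CPM with 5D. Both 5D libraries were below both vehicle libraries, and the gap between the vehicle libraries was larger than that between the nearest libraries of the 2 groups. The log2 fold change was -0.13 ± 0.0538 (SE, n = 2 per group, edgeR adjusted p = 0.634), so Psme2 did not pass after adjustment. The unadjusted p was no longer under 0.05 without vehicle replicate 2 (log2 fold change -0.08), without 5D replicate 1 (-0.14) or without 5D replicate 2 (-0.12), and the adjusted p ran from 0.216 to 0.935 over the alternatives.

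Psme1, which forms the PA28 cap together with Psme2 and lies close to it on chromosome 14, had 222.5 and 221.7 CPM with vehicle and 219.2 and 212.4 CPM with 5D. These libraries did not overlap either, at a log2 fold change of -0.04 ± 0.0507 (SE, edgeR adjusted p = 0.919). The 95% interval for Psme1, from -0.15 to 0.0696, overlapped that for Psme2, from -0.25 to -0.01, and the difference between the 2 genes was not tested.

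Psme2 has a near copy on chromosome 11, Psme2b, which is annotated as a protein-coding gene with 1 exon. Their transcripts differed at 5 of 794 aligned bases (99.4% identity). A read that lies between these differences would match both genes.

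Psme2b had 11.62 and 12.44 CPM with vehicle and 10.57 and 11.19 CPM with 5D, which was 4.42% to 4.7% of the sum of both genes. Its 5D libraries were also below its vehicle libraries, at a log2 fold change of -0.14 ± 0.157 (SE, edgeR adjusted p = 0.9). Because reads may have been split between the copies, the counts of both genes were also added, a choice made after seeing the data. The sum gave a log2 fold change of -0.13 ± 0.0532 (SE, edgeR adjusted p = 0.628), close to that of Psme2 alone.

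The other caps and the inhibitor had positive log2 fold changes, none past the test. Psme3, which forms the nuclear PA28 gamma cap, had 278.9 and 253.4 CPM with vehicle and 270.3 and 269.3 CPM with 5D. Psme4, which encodes the PA200 cap, had 41.81 and 40.62 CPM with vehicle and 43.44 and 39.21 CPM with 5D. Psmf1, the PI31 protein named as an inhibitor of the proteasome, had 59.29 and 63.21 CPM with vehicle and 64.3 and 71.73 CPM with 5D. The groups overlapped for Psme3 and Psme4, while both 5D libraries were above both vehicle libraries for Psmf1.

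The log2 fold changes were 0.0191 ± 0.0555 for Psme3, 0.0032 ± 0.0974 for Psme4 and 0.152 ± 0.0854 for Psmf1 (SE, edgeR adjusted p = 0.98, 0.997 and 0.755). Psmf1 had the highest log2 fold change of the tested proteasome genes, with a 95% interval from -0.04 to 0.34. Without 5D replicate 1 it stood at 0.22 and its unadjusted p was under 0.05. Psme3 stood at -0.0503 without vehicle replicate 2, and Psme4 at -0.0194 without that library and -0.0763 without 5D replicate 1.

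The 20S assembly chaperones Psmg1 to Psmg4 were split in the same way, with 2 genes on either side of 0 and a median of -0.0229, which was 0.0157 without vehicle replicate 2 and 0.0444 without 5D replicate 1. Psmg3 was below vehicle in both 5D libraries, at 47.14 and 46.17 against 43.37 and 45.54 CPM. Psmg4 had the widest spread with 5D, at 23.88 and 32.25 CPM around vehicle libraries of 29.19 and 31.13 CPM, and without 5D replicate 2 its log2 fold change moved from -0.10 to -0.34 (edgeR adjusted p = 0.847), with an unadjusted p under 0.05. Psmc3ip, the gene that is no subunit, had 25.36 and 22.04 CPM with vehicle and 26.16 and 24.87 CPM with 5D, which overlapped, at a log2 fold change of 0.105 ± 0.121 (SE, edgeR adjusted p = 0.907).

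Stretches shared with other genes also bear on the values. By sequence search, 18 of the 50 genes, Psme2 and Psme2b included, had a stretch of at least 150 nt with at least 95% identity in another gene. For 17 of them such a gene was in the table. Not all of these are copies. Psmb7, Psmb9, Psmc3ip, Psmd1 and Psmd13 matched, at 100% identity, a gene whose exons overlap theirs at the same place. Psmd2 shared 2726 nt with Gm5422 at 96.4% identity, and Psmd11 shared 1501 nt with A730017L22Rik at 97.9%. Exons of 15 genes overlapped those of another gene, and this count includes the genes just named. How reads were assigned among copies or overlapping genes is not given in the sources used here, so the level of these genes is uncertain to that extent.

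The genes have no common location, although 10 of the 50 lie on chromosome 11. Psmb8 (chr17:34197721-34201454) and Psmb9 (chr17:34181987-34187764) lie in the MHC region beside Tap1 and Tap2, and Psme1 (chr14:55578123-55581529) and Psme2 (chr14:55587441-55591113) are a pair, all in mm10 coordinates. Of the promoters, 42 were found in RefSeq (GRCm38.p6), and the 250 bases before the start were searched on both strands for motifs of regulators that are known for proteasome genes. The antioxidant response element, TGACNNNGC, the kind of site bound by the proteasome regulator Nfe2l1 with a small Maf partner, was in 5 of 42 (11.9%) and in 13.8% of 11277 protein-coding genes. An interferon-stimulated response element, written as TTTC, a gap of 2 bases and TTTC, was in 3 of 42 (7.14%) and in 3.24% of all. The gamma-activated site TTCNNNGAA was in 2 of 42 (4.76%, 7.28% of all) and the CCAAT box in 15 of 42 (35.7%, 40.1% of all). The 4 motifs were searched separately, so that sites which overlap each count for their own motif.

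Examples are shown for a core and a cap gene with the Nfe2l1 type of motif and for a core and a cap gene with the interferon type, with the match in capitals and written along the gene's strand. They are from GRCm38.p6, at chr11:70525323-70525356 on the plus strand (Psmb6), chr14:45329574-45329630 on the plus strand (Psmc6), chr11:97703246-97703305 on the plus strand (Psmb3) and chr3:95042660-95042719 on the minus strand (Psmd4). In Psmc6 the motif is on the opposite strand and reads in reverse complement.
Psmb6: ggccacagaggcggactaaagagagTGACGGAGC
Psmc6: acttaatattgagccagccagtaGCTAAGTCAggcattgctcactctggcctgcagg
Psmb3: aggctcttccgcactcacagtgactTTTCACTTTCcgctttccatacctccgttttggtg
Psmd4: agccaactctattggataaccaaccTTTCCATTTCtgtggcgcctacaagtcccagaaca

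A match of letters does not show that a factor binds. Psmb6 had a log2 fold change of -0.04 and Psmc6 one of 0.0389, neither past the test, and Psmb3 and Psmd4, with the interferon type, had 0.061 and 0.0866, also not past the test. Of the other genes with the Nfe2l1 type, Psmb5 and Psmd12 had -0.05 and -0.03. Psmd9, which has both types, had -0.0085, and none of these passed the test.

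Other genes of the pathway were read from lists of 53 names, of which 49 were in the table and tested. Of these 49, 2 were higher at an unadjusted p under 0.05 (background 3.5%) and 1 was lower (2.04%, background 3.84%), and none passed at an adjusted p under 0.05 in edgeR, DESeq2 or limma-voom. The lists are proteasome partners, the Nfe2l1 axis with the p97 unfoldase, the ubiquitin supply and class I antigen processing.

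The proteasome partners comprise receptors, deubiquitinases, shuttles and the assembly factor Pomp. The median log2 fold change of their 17 tested genes was -0.0361, 11 being negative and 6 positive. For 6 of the 17 genes the groups were apart with 5D lower (35.3%, background 18.8%), and for 0 they were apart with 5D higher (background 18.7%). Those 6 were Adrm1, Ecpas, Ube3c, Midn, Ubqln2 and Ubqln4. Ubqln2, a shuttle for ubiquitinated proteins, was lowest at 9.945 and 13.14 CPM with vehicle and 6.743 and 9.898 CPM with 5D, a log2 fold change of -0.47 ± 0.218 (SE, edgeR adjusted p = 0.684, 95% interval from -0.95 to 0.011). Midn, which brings nuclear proteins to the proteasome without ubiquitin, had 10.59 and 9.794 CPM with vehicle and 7.996 and 8.079 CPM with 5D (log2 fold change -0.34 ± 0.173, SE, edgeR adjusted p = 0.72). Ubqln2 and Midn were named after their values were seen, and neither passed the test. Pomp, which the core needs for assembly, had 268.7 and 273.3 against 270.3 and 270.8 CPM.

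Nfe2l1 encodes the transcription factor that raises proteasome genes when the proteasome is short, after release by p97 and processing by Ddi2. The median log2 fold change over the 12 genes of this axis was -0.0062. Nfe2l1 had 114.5 and 108.1 CPM with vehicle and 106.2 and 115.0 CPM with 5D, and Vcp, the p97 gene, had 810.4 and 830.8 against 822.7 and 815.7 CPM, with the groups overlapping for both. Syvn1, an ER ubiquitin ligase, had 67.94 and 67.41 CPM with vehicle and 58.33 and 60.96 CPM with 5D. Both 5D libraries were lower, by a log2 fold change of -0.18 ± 0.0779 (SE, edgeR adjusted p = 0.641). Its unadjusted p was no longer under 0.05 when any 1 of the 4 libraries was left out, with log2 fold changes from -0.22 to -0.15, or in DESeq2's Wald test.

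For the 6 genes of the ubiquitin supply the median was 0.051, and none had an unadjusted p under 0.05. The polyubiquitin gene Ubb had 2012 and 2065 CPM with vehicle and 2086 and 2079 CPM with 5D. Uba1, the main ubiquitin-activating enzyme, had 506.9 and 507.2 CPM with vehicle and 480.4 and 476.5 CPM with 5D (log2 fold change -0.08 ± 0.0412, SE, edgeR adjusted p = 0.713). The 5D libraries were above vehicle for Ubb and below it for Uba1.

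Of the 14 class I antigen processing genes, which use the peptides that the proteasome makes, 8 had a positive and 6 a negative log2 fold change, with a median of 0.0203. Erap1, the ER aminopeptidase that trims these peptides, had 115.7 and 110.7 CPM with vehicle and 134.7 and 128.9 CPM with 5D. Both 5D libraries were higher, by a log2 fold change of 0.219 ± 0.0627 (SE, edgeR adjusted p = 0.485), and the unadjusted p stayed under 0.05 in all 12 settings run for it. H2-D1, a class I heavy chain, had 4291 and 4558 CPM with vehicle and 4737 and 4660 CPM with 5D, a log2 fold change of 0.0869 ± 0.0322 (SE, edgeR adjusted p = 0.566). Both 5D libraries of H2-D1 were higher too, but its unadjusted p was no longer under 0.05 without vehicle replicate 1 (log2 fold change 0.0404) or without 5D replicate 1 (0.071).

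The remaining class I genes included both directions without passing the test. Tap1 and Tap2, the peptide transporter next to Psmb8 and Psmb9, had overlapping groups, at 188.0 and 179.3 against 173.1 and 181.1 CPM for Tap1 and 254.8 and 240.5 against 242.1 and 220.9 CPM for Tap2. The activators of this program had log2 fold changes of 0.0503 ± 0.0787 for Irf1 and 0.168 ± 0.108 for Nlrc5 (SE, edgeR adjusted p = 0.941 and 0.806), with overlapping groups. The 95% interval for Nlrc5 was wide, from -0.07 to 0.41. B2m, the light chain of class I, had 2224 and 2276 CPM with vehicle and 2175 and 2222 CPM with 5D.

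**Figure D4:**
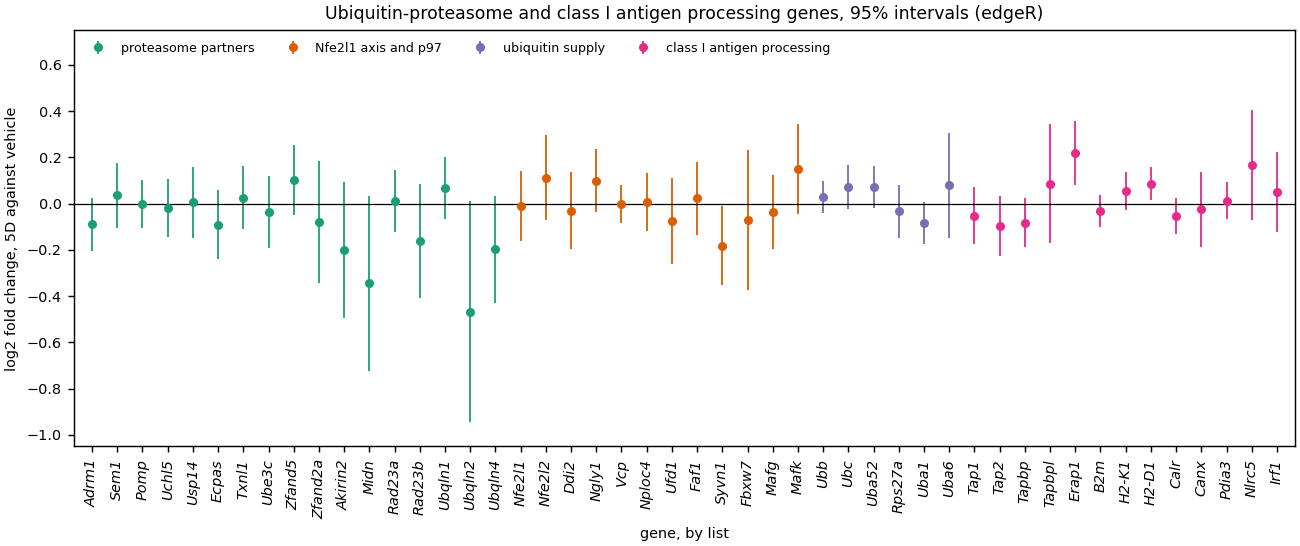
Log2 fold change of 5D against vehicle for 48 of the 49 other genes of the ubiquitin-proteasome and class I pathway with 95% intervals from edgeR, coloured by list. The interval leaves out 0 for Erap1 and H2-D1 (above 0) and Syvn1 (below 0), and the widest interval is that of Ubqln2.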

How the data were processed

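RNA of sorted lung ILC2s was read in 2 vehicle and 2 5D libraries. The authors made cDNA with a SMARTer low-input kit from 10 ng of RNA per the labels (their methods state another amount), sequenced on a NextSeq 500, ran STAR 2.6.1 and Partek software against mm10 with GENCODE M21, and deposited estimated counts per gene before normalization (CASAVA 1.8.2 is also in their processing notes). Between 50.4% and 53.2% of each library's values were whole, and counts were rounded. The test had been planned for whole counts.

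Normalization used upper quartile factors. The filter asked for normalized counts of 1 or more on average and 10 or more in sum (17650 of 22554 genes passed). 5D was compared with vehicle by edgeR 4.0.16 in R 4.3.3 (quasi-likelihood, two-sided, no covariates, Benjamini-Hochberg adjustment over all genes tested). The authors' Gene Set Analysis was not run. The biological coefficient of variation was 8.51%. Alternatives were TMM, DESeq2 1.42.0 (size factors, Wald test), limma-voom 3.58.1, other filters, a replicate block and leaving out each library. The code was tested on simulated data. Intervals cover 95%. Near copies were sought with BLAST 2.17.0. The single values of 1 list gene and 1 sequence are not reported here. The members and lists were chosen with earlier results of these data known. Genes named with values in each library are the catalytic subunits, Psme1 to Psme4, Psmf1, any gene of the lists with an unadjusted p under 0.05 and the 3 highest and 3 lowest members by log2 fold change (of which Psma8 was too low for a fold change). Other genes named were chosen after their values were seen.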

Additional observations from a re-analysis of the deposited data

How the results depend on the processing

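No proteasome gene and no pathway gene passed at an adjusted p under 0.05 under any alternative run. Psme2 was negative under all of them and Erap1 positive. The number of pathway genes lower at an unadjusted p under 0.05, 1 as reported, was 0 with DESeq2's Wald test, 2 with limma-voom, no filter or filterByExpr and 3 with the replicate block. The replicate numbers are not known to pair the libraries (same-numbered deviations correlated at 0.016 over 12331 genes), and the block left 1 proteasome gene lower and 0 higher. The median of the 19S non-ATPases was -0.0222 with TMM. The log2 ratio of immunoproteasome to constitutive subunits was 0.1107 from medians. That ratio was 0.3875 and 0.4034 with vehicle and 0.4242 and 0.4297 with 5D, so its groups did not overlap, unlike the sums. The exact permutation p was 0.333, the smallest possible. These medians are Psmb9 over Psmb5, which are not counterparts. Psmb7 turned to -0.0007 without rounding and Psme4 to -0.0011 with limma-voom, both too near 0 to have a direction.

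Leaving out 1 library gave 0 to 1 proteasome genes lower and 0 to 1 higher, and 1 to 3 pathway genes lower and 2 to 4 higher, at an unadjusted p under 0.05. Medians then ran from -0.0306 to 0.007 (proteasome genes), -0.0264 to 0.0357 (alpha ring), -0.0085 to 0.0425 (structural beta), -0.0623 to 0.1172 (immunoproteasome), -0.0434 to 0.004 (ATPases), -0.0395 to -0.019 (non-ATPases), -0.127 to 0.1104 (base chaperones), -0.0723 to -0.0005 (activators and inhibitor), -0.0733 to 0.0444 (assembly chaperones), -0.028 to 0.0236 (Nfe2l1 axis), 0.011 to 0.0508 (ubiquitin supply) and -0.0274 to 0.0397 (class I), and the log2 ratio of immunoproteasome to constitutive subunits from -0.0057 to 0.0635. Log2 fold changes that turned sign without 1 library ran from -0.0355 to 0.0331 (Psmb7), -0.0814 to 0.1283 (Psmb10), -0.0623 to 0.0142 (Psmb8), -0.0503 to 0.0868 (Psme3) and -0.0763 to 0.0737 (Psme4). Without 1 library, medians also ran from -0.0358 to -0.0173 (constitutive catalytic beta) and from -0.0531 to -0.0252 (proteasome partners). In all fits without 1 library, the lone library is assumed to vary like the other group. With 2 libraries per group, depth did not allow a statement on Psmb11 and Psma8, and the cause of the changes above was not tested.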

Other observations

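The table also holds 3 pseudogene rows with the names of core subunits, which were not among the genes described above. Psmb5-ps had 1 and 1 counts with vehicle and 2 and 2 with 5D, Psmb6-ps2 had 7 and 6 against 2 and 11, and Psmb7-ps2 had 0 and 3 against 1 and 9. None of these rows was read as a difference at these counts.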
